A study of Bos taurus with 18 samples.

Results

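Late recovery from heat was followed in MAC-T, an epithelial cell line that was immortalised from the mammary gland of a cow, by comparing cells returned to 37 °C for 6 h after heat (D6R) with cells returned for 2 h (D2R). The 6 libraries of these groups, 3 per time, were chosen by their labels out of 18 in the series, and 15158 of 30642 genes had enough reads to be tested. Cells of both groups had spent 4 days in a lactogenic medium, which held 5 µg/ml insulin, 1 µg/ml hydrocortisone, 5 µg/ml ovine prolactin and 10 µg/ml dexamethasone, and had then been held at 42 °C for 1 h. Differentiated cells that were never heated (NHSD) and differentiated cells collected at the end of the heat hour (HSD) had the same medium and are given as reference levels, and the basal-medium groups enter only the estimate of the spread. The experiment was repeated 3 times, and the replicate numbers 1 to 3 are called runs here. In each run D2R and D6R shared 1 plate, while NHSD and HSD lay on other plates, so plate and group cannot be told apart in any comparison with those 2 groups. RNA of 2 technical replicates was pooled for each library, and no time-matched unheated cells accompany the 2 h and 6 h points, so time after heat and time in culture cannot be told apart.

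Heat unfolds proteins, and cells answer through heat shock factor HSF1, which switches on genes of cytosolic chaperones that hold, refold or hand over damaged proteins. When free chaperones become available again they bind HSF1 and the response winds down, while endoplasmic reticulum chaperones are governed separately by the unfolded protein response. Stress also acts through ATF4, a transcription factor of the integrated stress response that governs genes of amino acid supply and of cell fate. Late recovery is the period in which these programmes are known to be switched off or handed over.

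The 6 libraries held 40891703 to 56978203 counts each, and levels below are CPM, the counts as a rate over the TMM-scaled library total, always listed for runs 1, 2 and 3 in that order. The label of an epithelial line was checked against marker genes. KRT8, a luminal keratin, was at 3140 to 4144 CPM and KRT5, a basal keratin, at 8583 to 13800 CPM over the 6 libraries. The luminal factors ELF5, GATA3 and ESR1 stayed under 0.34 CPM. On the basal or myoepithelial list, MYLK and OXTR reached at most 0.2005 and 0.1113 CPM. Of the listed markers, 6 of 9 luminal and 6 of 8 basal or myoepithelial genes averaged at least 1 CPM. Markers of immune, endothelial and fat cells summed to at most 2.03, 4.61 and 6.26 CPM, with LYZ, KDR and ADIPOQ at 0 reads. The fibroblast list, summing to 454 to 783 CPM at 2 h and 456 to 749 CPM at 6 h, rested almost wholly on DCN, with COL1A1 and COL1A2 under 0.34 CPM. Of the milk protein genes, CSN1S1 and PAEP had 1 read each over the 6 libraries and CSN1S2, CSN2, CSN3 and LALBA had 0, so milk protein transcripts were at or near 0 in the lactogenic medium.

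Run 1 stood apart from runs 2 and 3 in this comparison. Across the 15158 genes, the log2 difference between 6 h and 2 h had a Pearson correlation of 0.56 between runs 2 and 3, of -0.02 between runs 1 and 2 and of -0.09 between runs 1 and 3. These correlations describe genes that share their libraries and scaling, and genes are not independent replicates. The differences were also smaller in run 1, where 38 genes differed by more than 1 on the log2 scale, against 178 in run 2 and 215 in run 3. In other libraries, the heat difference (HSD minus NHSD) had a correlation of 0.55 between runs 2 and 3, and of 0.16 and 0.01 between run 1 and those runs. Since each run holds 1 library per time, whether the change differed between runs could not be tested, so levels are given by run, and genes called without run 1 are marked as such. The labels of the run 1 libraries were taken as given. Whether its D2R and D6R libraries carry the right labels was not tested, and every run 1 value and every fit over all 3 runs rests on them. A p-value covers the spread between these runs of 1 cell line.

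**Figure D1:**
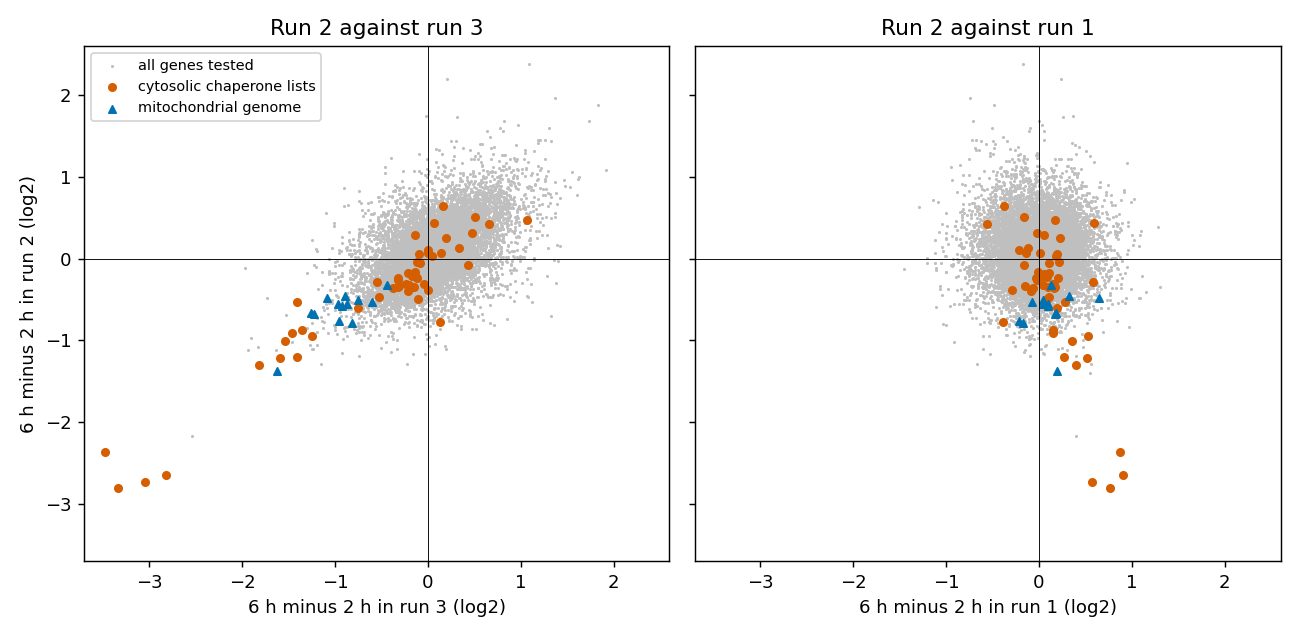
Each point is a gene, placed by its 6 h minus 2 h difference in log2(CPM + 0.5) in run 2 (vertical) and in run 3 (left) or run 1 (right), with cytosolic chaperone lists in orange and mitochondrial genome transcripts as blue triangles. The cloud is tilted between runs 2 and 3 (correlation 0.56) and round between runs 1 and 2 (-0.02), and the chaperones far below 0 in runs 2 and 3 lie above 0 in run 1.

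No gene passed an adjusted p of 0.05 between 6 h and 2 h in edgeR's test with the run as a block (0 of 15158, percent called 0). At an unadjusted p under 0.05 stood 1808 genes, 1045 higher at 6 h (6.89% of those tested) and 763 lower (5.03%). The smallest adjusted p was 0.0929, shared by 5 genes. DESeq2 with the same block called 131 genes (1.13% of the 11631 it adjusted), 86 higher and 45 lower at 6 h, and 119 of them went the same way in all 3 runs. Without run 1, edgeR called 547 genes, 332 higher (2.17% of 15300 tested) and 215 lower at 6 h (1.41%). Leaving out only D2R replicate 1 gave 268 calls and leaving out only D6R replicate 1 gave 234, whereas 0 genes were called when any other single library or run was left out. Of the 547 genes, 198 went the same way in run 1. The median absolute difference over the 547 was 0.15 in run 1, 0.67 in run 2 and 0.71 in run 3. These genes were chosen by runs 2 and 3, so wider differences there than in run 1 follow from the choice. Over all genes tested the medians were 0.165, 0.211 and 0.195 in runs 1, 2 and 3. The fit without run 1 rests on 2 libraries per time, so its calls describe runs 2 and 3 and not the condition at large. It was carried forward after run 1 was seen to differ. Its adjusted p-values do not allow for that choice and so are too small. They are printed to mark which genes were called, and are not support for a change in any gene. Counts of list members that rose or fell in it stand beside 2.17% and 1.41% of all genes. Log2 differences are given ± their standard error. Below, rose and fell are used of that fit, and the genes named for its calls were chosen after their values were seen. In bulk samples fewer cells of a type and less RNA per cell cannot be told apart, here and in every result that follows.

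**Figure D2:**
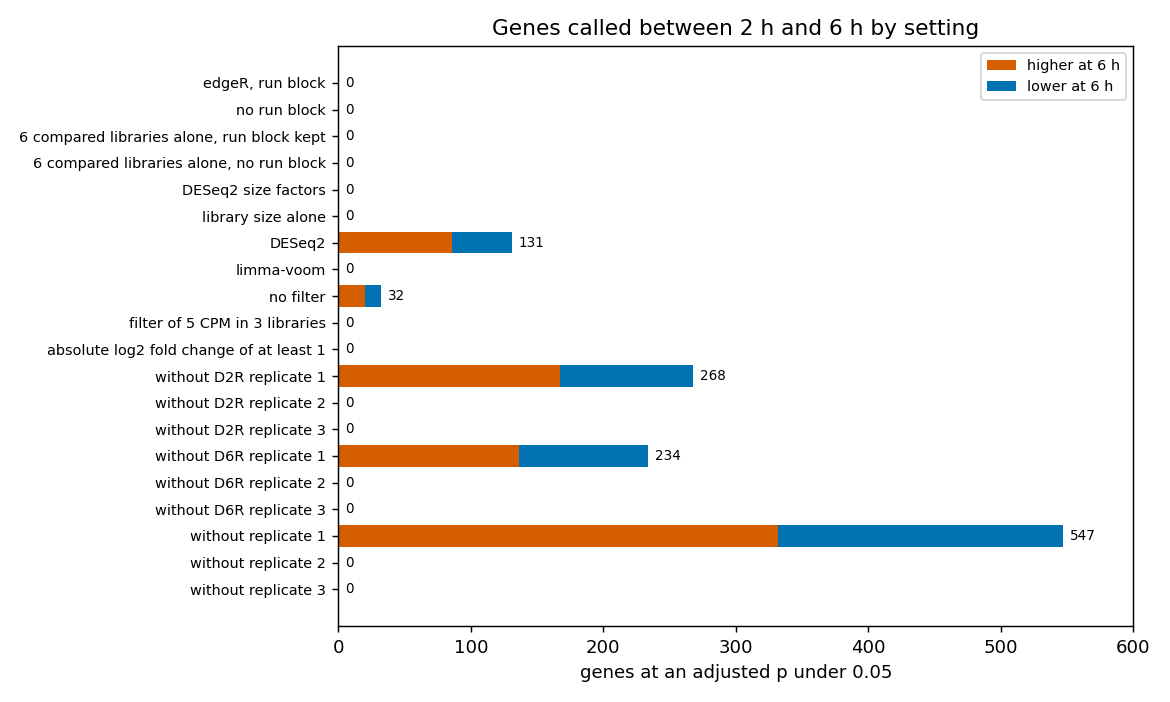
Bars count the genes at an adjusted p under 0.05 between 6 h and 2 h (horizontal axis) in each planned setting (rows), split into genes higher (orange) and lower (blue) at 6 h. The settings with calls are DESeq2 (131), no filter on low counts (32) and the 3 that leave out libraries of run 1 (268, 234 and 547).

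The inducible HSP70 genes HSPA1A and HSPA6 were far lower at 6 h than at 2 h in runs 2 and 3, and higher at 6 h than at 2 h in run 1. HSPA1A, the main inducible HSP70, was at 1010.4, 3282 and 3927 CPM at 2 h and at 1721, 468 and 389 CPM at 6 h. Unheated cells held 464, 359 and 457 CPM, so its 6 h level lay near the unheated one in runs 2 and 3 and several times above it in run 1. Over the 3 runs the log2 difference was -1.87 ± 0.62, with an adjusted p of 0.287 (edgeR). Without run 1, HSPA1A fell by 3.08 on the log2 scale, or 8.44-fold (edgeR, adjusted p of 1.4e-04). HSPA6, a strictly stress-inducible HSP70, was at 20.3, 138 and 118 CPM at 2 h and 37.7, 26.4 and 10.2 CPM at 6 h, against 3.69, 3.03 and 3.58 CPM in unheated cells. Its groups overlapped through run 1, and the log2 difference was -2.01 ± 0.65, with an adjusted p of 0.286 over all runs and a value of -2.88 without run 1 (edgeR, adjusted p of 0.00767). HSPA1A has near-identical relatives in mammalian genomes, and how reads shared between copies were counted is not given in the sources used here, so its level is uncertain in that respect. DESeq2 called neither gene over all runs (adjusted p of 0.0619 for each).

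HSPH1 and BAG3, which help HSP70 to release its substrates, had the same order as HSPA1A. HSPH1, the HSP110 that exchanges the nucleotide on HSP70, was at 370.2, 1259 and 1639.5 CPM at 2 h and 693, 201 and 232 CPM at 6 h. BAG3, an exchange factor that also steers clients to autophagy, was at 79.5, 469 and 512 CPM and then 118, 70.4 and 61.4 CPM. In both genes the 2 h level of run 1 was the lowest of the 3 runs and its 6 h level the highest. The log2 difference was -1.57 ± 0.57 for HSPH1 and -1.9998 ± 0.63 for BAG3, neither called over all runs (edgeR, adjusted p of 0.329 and 0.278). DESeq2 called BAG3 and did not call HSPH1 (adjusted p of 0.164). In the fit that left out run 1 after it was seen to differ, HSPH1 fell 6.66-fold and BAG3 7.45-fold. The adjusted p-values of 2.1e-06 and 0.00163 (edgeR) do not allow for that choice. Of the 18 genes listed for HSP70, HSP110 and nucleotide exchange, all 18 were tested, 13 were lower and 5 higher at 6 h, and the median log2 difference was -0.14, against 0.00 over all genes. By run the list's median was 0.18, -0.31 and -0.32, and 6 of 18 fell without run 1, the remaining 2 being HSPA8, the constitutive HSP70, and BAG2. Not all members had this order, since HSPBP1 was lower at 6 h in every run and HSPA1L and BAG4 were higher at 6 h in runs 2 and 3. Of the 18, 2 were higher and 1 lower in all 3 runs, where 17.3% and 18.1% of all genes were. In 2 the libraries of 6 h all lay above those of 2 h (4.33% of all genes), and in 0 all below (3.38%).

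J-domain proteins, which deliver clients to HSP70, included DNAJB1 and DNAJA1, the partners most often paired with the cytosolic HSP70s. DNAJB1 was at 126, 235 and 278 CPM at 2 h and 139.5, 125 and 100.4 CPM at 6 h, with 109, 92.4 and 101 CPM in unheated cells, so the 2 h level of run 1 was already close to its unheated one. Its log2 difference was -0.84 ± 0.26 over all runs (edgeR, adjusted p of 0.254), and it fell 2.28-fold without run 1 (adjusted p of 3.6e-04). DNAJA1 went from 274, 465 and 549 CPM at 2 h to 361, 189 and 155 CPM at 6 h, again with the order turned round in run 1 (log2 difference -0.97 ± 0.29, edgeR adjusted p of 0.254). DNAJB4 stood at 147, 224 and 217 CPM and then 188, 111 and 74.4 CPM (-0.76 ± 0.24, edgeR adjusted p of 0.266, and 1.9e-04 without run 1). All 11 J-domain genes were tested, 8 lower and 3 higher at 6 h (median -0.12, with 0.15, -0.24 and -0.32 by run), and 4 fell without run 1, namely these 3 and DNAJA4.

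HSP90AA1 differed little between the times, and 3 cochaperones of HSP90 were called lower without run 1. HSP90AA1, the inducible cytosolic HSP90, was at 2618, 3550.1 and 3190.2 CPM at 2 h and 2924, 2855 and 3100.5 CPM at 6 h, a log2 difference of -0.07 ± 0.12 (edgeR, adjusted p of 0.840). Both times lay above the unheated 1345, 1437 and 1194 CPM in every run, and at 6 h HSP90AA1 was higher than in NHSD by 1.17 ± 0.12 on the log2 scale (edgeR, adjusted p of 3.6e-05, where 1.45% of genes were called in that comparison). Of the cochaperones, FKBP5 and FNIP2 were higher at 6 h in runs 2 and 3, and the next 3 lower. AHSA2, a relative of the HSP90 ATPase activator AHSA1, was at 6.70, 18.2 and 16.4 CPM and then 9.82, 7.55 and 5.10 CPM. CHORDC1, an HSP90 cochaperone, went from 82.04, 136 and 146 CPM to 118, 70.6 and 60.9 CPM. STIP1, which passes clients from HSP70 to HSP90, was at 271, 362 and 343 CPM and 293, 262 and 238 CPM. All 3 were higher at 6 h in run 1, none was called over all runs, and they were the 3 of 18 genes of the HSP90 list that fell without run 1 (edgeR, adjusted p of 9.4e-04, 4.1e-04 and 0.0150). The HSP90 list had 13 genes lower and 5 higher, with a median of -0.13 over all runs and of 0.07, -0.31 and -0.13 by run.

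**Figure D3:**
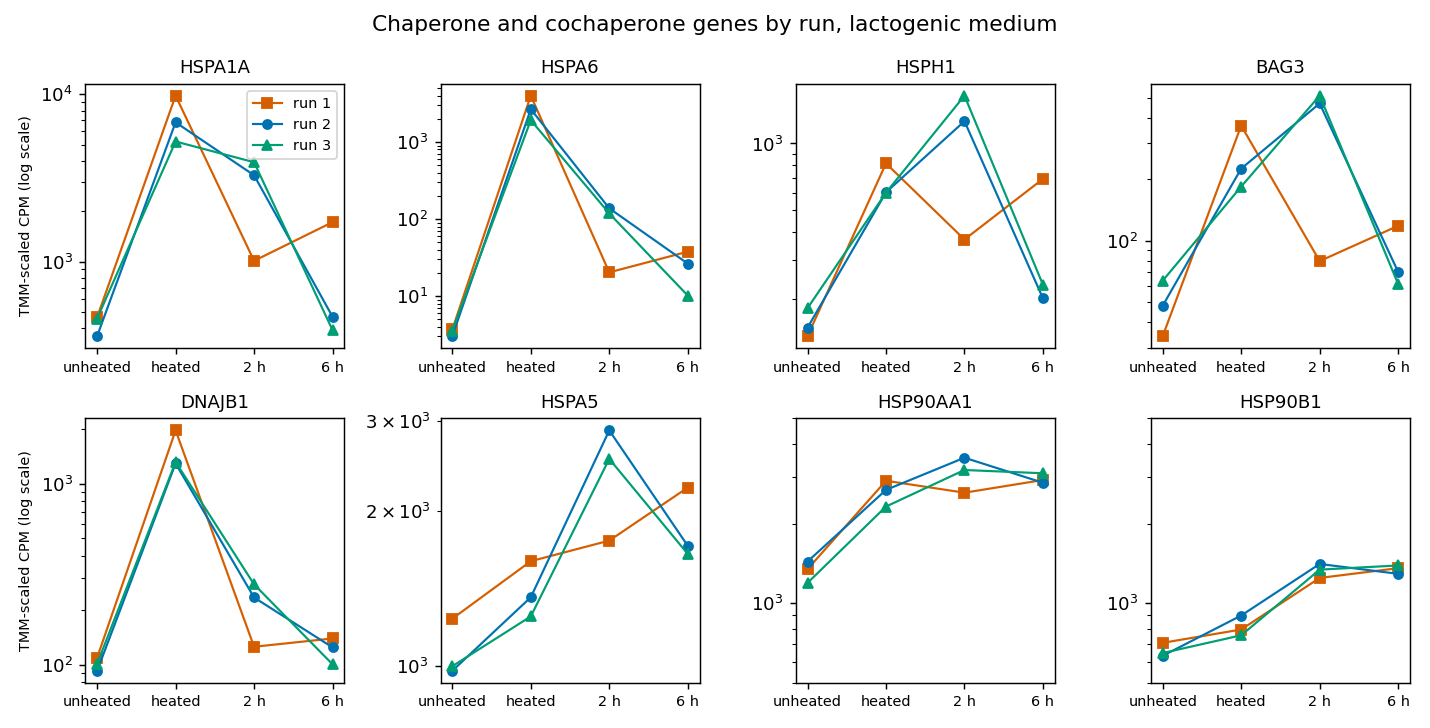
Lines give the level of 8 genes in CPM (logarithmic vertical axis) in unheated and heated differentiated cells and after 2 h and 6 h of recovery (horizontal axis), 1 line per run. HSPA1A, HSPA6, HSPH1, BAG3, DNAJB1 and HSPA5 descend from 2 h to 6 h in runs 2 and 3 and ascend in run 1, while HSP90AA1 lies between 2618 and 3550.1 CPM and HSP90B1 between 1246 and 1408 CPM at both times.

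Small heat shock proteins hold unfolded clients without using ATP. Of 8 such genes 5 were tested, and HSPB8, the partner of BAG3, was at 362, 907 and 1360.3 CPM at 2 h and 436, 392 and 512 CPM at 6 h. It was the 1 member that fell without run 1 (2.48-fold, edgeR adjusted p of 8.8e-05), with a log2 difference of -0.86 ± 0.32 over all runs (adjusted p of 0.324). The list, 3 lower and 2 higher, had a median of -0.22 and medians of -0.29, -0.38 and 0.13 by run, an order that HSPB8 did not share. ZFAND2A, an arsenite- and heat-inducible proteasome adaptor also known as AIRAP, was at 60.8, 195 and 190.2 CPM at 2 h and 80.3, 42.9 and 32.2 CPM at 6 h. DESeq2 called ZFAND2A over all 3 runs, and edgeR did not (-1.62 ± 0.48 on the log2 scale, adjusted p of 0.258). Among the 44 ubiquitin and proteasome genes, 29 were lower at 6 h in all 3 runs, where 18.1% of all genes were, and 2 were higher in all 3 runs, where 17.3% of all genes were. These differences were small, with a list median of -0.13 and medians of -0.07, -0.17 and -0.16 by run, and 0 of the 44 passed edgeR's adjusted threshold over all runs. All 8 subunits of the TRiC chaperonin, which folds actin and tubulin, were lower at 6 h (median -0.21, with 0.03, -0.30 and -0.29 by run), with CCT5 at -0.26 ± 0.11 (edgeR, adjusted p of 0.341). Mitochondrial chaperones and proteases had a median of -0.10 (-0.02, -0.11 and -0.12 by run), with TRAP1, the mitochondrial HSP90, lower at 6 h in every run (48.5, 61.2 and 52.6 CPM and then 41.7, 50.5 and 47.1 CPM) and not called (adjusted p of 0.329). Of the heat shock factors and their partners, 6 of 7 had a lower fitted level at 6 h (median -0.07), but the medians by run were -0.12, -0.14 and 0.08, and the median was 0.06 without run 1 and about 0 under library size scaling, so no direction is read from them. The exception was HSF2, at 14.3, 15.1 and 13.7 CPM at 2 h and 18.3, 16.3 and 16.6 CPM at 6 h, with no overlap between the times and an adjusted p of 0.413 (edgeR).

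Among endoplasmic reticulum chaperones, HSP90B1 differed little between the times, while HSPA5 had the same order by run as the cytosolic chaperones. HSP90B1, the reticulum's HSP90, was at 1246, 1408 and 1339.9 CPM at 2 h and 1357, 1292 and 1389.6 CPM at 6 h, against 708, 633 and 648 CPM in unheated cells. Its log2 difference between the times was 0.02 ± 0.09, the smallest of the genes named here and of changing sign when single libraries were left out, with an adjusted p of 0.959 (edgeR), and at 6 h it was higher than in NHSD by 1.02 ± 0.09 (adjusted p of 1.2e-05). HSPA5, known as BiP and the reticulum's HSP70, was at 1755, 2874 and 2530.4 CPM at 2 h and 2225, 1715 and 1654 CPM at 6 h. It was not called over all runs (-0.38 ± 0.15 on the log2 scale, edgeR adjusted p of 0.336), fell 1.60-fold without run 1 (adjusted p of 0.00522), and at 6 h was still higher than in NHSD by 0.79 ± 0.15 (adjusted p of 0.0143). A pair of secreted targets of the unfolded protein response were also called without run 1. CRELD2 was at 83.3, 122 and 83.4 CPM at 2 h and 90.2, 71.1 and 52.5 CPM at 6 h (edgeR, adjusted p of 0.00724 without run 1). MANF, which protects cells from reticulum stress, was at 348, 444 and 289 CPM and then 342, 267 and 208 CPM, lower at 6 h in every run by very unequal amounts (adjusted p of 0.0127 without run 1). Of the 35 genes on the list, all tested, 27 were lower and 8 higher at 6 h (median -0.08, with 0.08, -0.195 and -0.12 by run), and 4 fell without run 1, XBP1 being the other, while 0 rose. Scaling by library size alone brought the list's median to -0.00, and that of all genes to 0.08.

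Transcripts of the mitochondrial genome were lower at 6 h in runs 2 and 3. The 13 protein genes, which code for subunits of the respiratory chain and ATP synthase, were all tested and all had a negative log2 difference (median -0.45, against 0.00 over all genes), and none was called by edgeR. Their median was 0.10 in run 1, -0.56 in run 2 and -0.92 in run 3. CYTB, the cytochrome b of complex III, was at 633, 879.8 and 985 CPM at 2 h and 722, 340.3 and 320.1 CPM at 6 h, with the 6 h levels of runs 2 and 3 below every unheated library (956, 738 and 751 CPM). Without run 1, CYTB fell 2.81-fold (edgeR, adjusted p of 3.4e-04) and 5 more of the 13 fell too. These were ND1, ND2, COX2, ATP6 and ATP8, with falls of 0.94, 0.95, 0.63, 0.71 and 0.76 on the log2 scale. COX1 had the smallest difference of the 13, -0.22 ± 0.23 over all runs, with 10093, 12748 and 19623 CPM at 2 h and 11081, 10228 and 14419 CPM at 6 h. DESeq2 called 1 of the 13 over all runs, ND3, which was lower at 6 h in every run (224, 277 and 249 CPM and then 193, 164 and 128 CPM). ATP8 and ATP6 overlap on the mitochondrial genome, so their reads cannot be fully told apart.

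The integrated stress response list had a positive median in runs 2 and 3 and a negative one in run 1. Of 30 genes, all tested, 22 were higher and 8 lower at 6 h, with a median of 0.17 over all runs and of -0.08, 0.32 and 0.14 by run. At an unadjusted p under 0.05, 8 were higher and 0 lower, where 6.89% and 5.03% of all genes were. In the fit without run 1, 8 rose and 0 fell. The 8 that rose without run 1 were ATF4 itself, DDIT3 (CHOP), TRIB3, CEBPB, CHAC1, SESN2, NUPR1 and SLC3A2. The 8 at an unadjusted p under 0.05 over all runs were not the same set, since NUPR1 was not among them. CHAC1, which degrades glutathione and is a target of ATF4 and CHOP, was at 10.5, 7.10 and 5.88 CPM at 2 h and 7.34, 27.5 and 22.3 CPM at 6 h. It rose 3.83-fold without run 1 (edgeR, adjusted p of 1.6e-05), and its log2 difference over all runs was 1.37 ± 0.45 (adjusted p of 0.286). FGF21, a stress hormone and ATF4 target outside the list, was at 8.68, 4.84 and 6.93 CPM and then 6.75, 13.96 and 18.1 CPM (1.07 ± 0.38, edgeR adjusted p of 0.298, and 0.00170 without run 1). SESN2, a sestrin that restrains mTORC1, was at 18.8, 14.6 and 12.9 CPM at 2 h and 15.9, 34.7 and 31.4 CPM at 6 h, and was called by DESeq2 over all runs and by edgeR without run 1 (adjusted p of 3.3e-04). NUPR1 was at 9.29, 0.721 and 8.995 CPM and 6.59, 1.68 and 19.995 CPM, so its runs differed more than its times. SESN2 and CHAC1 thus had the same order, lower at 6 h in run 1 and higher at 6 h in runs 2 and 3. SLC3A2, the heavy chain of amino acid transporters, stood at 144, 120.1 and 118 CPM and 132, 177 and 179 CPM. Of the 17 amino acid transporter genes 14 were higher at 6 h, 7 of them in all 3 runs (17.3% of all genes were). The list had the highest median of those examined (0.21 over all runs, with 0.15, 0.26 and 0.13 by run). Without run 1, 2 of its genes rose and 1 fell, SLC1A5 (edgeR, adjusted p of 0.0496). SLC3A2, SLC7A1, SLC7A5 and SLC7A11 are on this list and on the integrated stress response list, so the lists are not separate results.

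Several growth arrest genes were higher at 6 h in runs 2 and 3. On the p53 list 19 of 25 tested genes were higher at 6 h (median 0.09, with -0.02, 0.18 and 0.24 by run). At an unadjusted p under 0.05, 8 were higher and 3 lower, where 6.89% and 5.03% of all genes were. Without run 1, 7 rose and 1 fell. SESN2, among those that rose, is also on the integrated stress response list. SESN1, a p53-dependent sestrin, was at 7.72, 3.82 and 13.2 CPM and then 8.66, 8.17 and 22.8 CPM, higher at 6 h in every run (0.64 ± 0.21, edgeR adjusted p of 0.249, and 0.0228 without run 1). BBC3, the pro-apoptotic PUMA, was at 4.33, 2.99 and 5.03 CPM and 4.27, 7.14 and 12.04 CPM. CDKN1A, on the same list, differed little, at 103, 127 and 157 CPM and 93.1, 147 and 153 CPM (0.02 ± 0.11, edgeR adjusted p of 0.958). PLK2, the 1 listed gene that fell without run 1, was at 914, 980.0 and 946 CPM and 974, 711 and 655 CPM. Among BCL2 family genes, BCL2L1, which codes for the anti-apoptotic BCL-xL, was lower at 6 h in every run (109, 139 and 158 CPM and then 102, 93.8 and 86.8 CPM, no overlap) and was called by DESeq2 but not by edgeR (-0.51 ± 0.11 on the log2 scale, adjusted p of 0.144). BMF, a pro-apoptotic relative, was at 32.5, 18.1 and 34.8 CPM and 28.8, 35.98 and 63.8 CPM (0.54 ± 0.24, edgeR adjusted p of 0.389, and 0.00850 without run 1). In those 2 genes run 1 showed the smallest difference of the 3 runs.

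Immediate early genes had no common direction. JUN, a subunit of the AP-1 transcription factor, was at 94.1, 110.0 and 70.02 CPM at 2 h and 83.9, 234 and 266 CPM at 6 h, against 83.1, 101 and 94.3 CPM in unheated and 301, 261 and 236 CPM in heated cells. In runs 2 and 3 its 6 h level was thus close to the heated one, and in run 1 to the unheated one. JUN rose 2.79-fold without run 1 (edgeR, adjusted p of 0.00527) and had a log2 difference of 1.05 ± 0.33 over all runs (adjusted p of 0.275). DUSP1, the phosphatase that switches off MAP kinases, was at 90.6, 99.5 and 78.9 CPM and 75.9, 148 and 169 CPM (0.54 ± 0.26, edgeR adjusted p of 0.441, and 0.00315 without run 1). NR4A1, an orphan nuclear receptor, was lower at 6 h in every run (11.1, 25.7 and 9.97 CPM and then 9.11, 12.5 and 3.28 CPM) and was called by DESeq2. KLF2, a zinc finger factor, was also lower in every run (9.24, 10.9 and 3.71 CPM and 8.26, 4.75 and 0.853 CPM), and in both genes run 1 differed least. The list of 39 genes (37 tested) had 22 higher and 15 lower with a median of 0.04 (-0.125, 0.06 and 0.07 by run), and 5 rose and 2 fell without run 1. The KLF list had 6 higher and 7 lower (median -0.03), with KLF2 as its widest difference and medians of 0.13, -0.14 and -0.18 by run and of 0.05 under library size scaling. On the Hippo list 9 were higher and 9 lower (median -0.06, with 0.07, -0.05 and -0.07 by run and 0.03 under library size scaling), with F3, tissue factor, at -0.38 ± 0.14 (edgeR, adjusted p of 0.288). By run, F3 differed by 0.18, -0.59 and -0.65, and it was the 1 member that fell without run 1 (edgeR, adjusted p of 0.0131).

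Over all runs most inflammatory, hormone and clock genes had a higher fitted level at 6 h by small amounts, and none was called by edgeR. In run 1 the medians of the NF-kB and glucocorticoid lists lay below 0. Of 22 tested NF-kB genes 16 were higher (median 0.12, with -0.15, 0.20 and 0.37 by run), with BIRC3, an inhibitor of apoptosis, higher at 6 h in every run without overlap (28.9, 25.5 and 27.5 CPM and then 34.9, 41.2 and 38.3 CPM). DESeq2 called BIRC3 (edgeR, adjusted p of 0.152). Among 19 tested glucocorticoid targets 16 were higher (median 0.15, with -0.02, 0.23 and 0.26 by run), led by PDK4, a brake on pyruvate oxidation, at 1.36, 1.55 and 6.78 CPM and 1.51, 3.27 and 20.4 CPM and called by DESeq2. PDK4 in run 3 was several times higher than in the other runs at both times. MT2A, a metallothionein, went against its list, at 803, 840.4 and 1215 CPM at 2 h and 753, 369 and 724 CPM at 6 h, lower in every run and called by DESeq2. Of 14 tested prolactin signalling genes 11 were higher (median 0.15, with 0.07, 0.27 and 0.215 by run), and STAT5A, the transducer of the prolactin receptor, was higher in every run without overlap, at 8.04, 6.56 and 8.12 CPM and then 9.11, 11.9 and 13.04 CPM. It was called by DESeq2 and not by edgeR (adjusted p of 0.202). Of 16 tested clock genes 14 were higher (median 0.11, with 0.04, 0.21 and 0.35 by run), among them TEF, an output factor of the clock, at 16.9, 16.9 and 22.9 CPM and 19.6, 23.9 and 41.4 CPM, also called by DESeq2. BHLHE40, a repressor of clock genes, was at 98.2, 162 and 157 CPM and 100.5, 97.5 and 94.1 CPM. TGF-beta feedback genes had a median of 0.04 (-0.01, 0.13 and 0.07 by run), with ID3 at 101, 49.8 and 47.8 CPM and 84.9, 90.9 and 101 CPM.

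**Figure D4:**
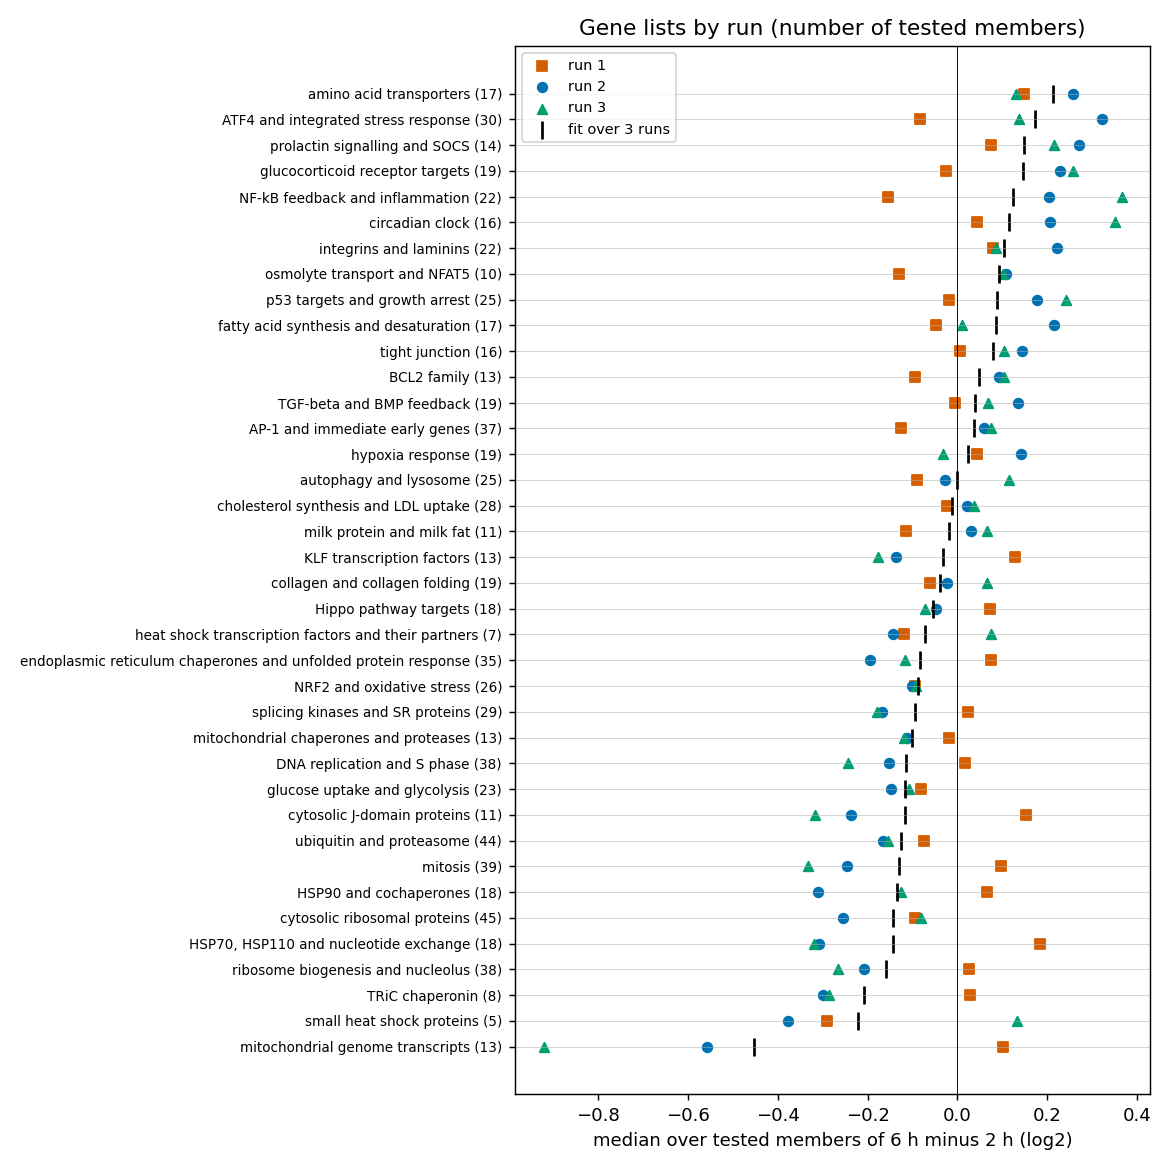
Each row is a gene list with its number of tested members, and symbols give the median 6 h minus 2 h log2 difference of the members (horizontal axis) in runs 1, 2 and 3, with a bar for the fit over all runs. Mitochondrial genome transcripts lie lowest (0.10, -0.56 and -0.92 by run) and amino acid transporters highest, and run 1 lies on the other side of 0 from runs 2 and 3 in the HSP70 and ATF4 rows.

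Most genes of ribosomes and of cell division had lower fitted levels at 6 h by small amounts, and none was called over all runs. All 45 tested genes of cytosolic ribosomal proteins had a negative log2 difference, 34 were lower in all 3 runs (18.1% of all genes were), and in 10 the times did not overlap (3.38% of all genes lay below in this way and 4.33% above). Ribosomal protein genes have many processed copies, so their counts are uncertain in how shared reads were assigned. Their median was -0.14 (-0.09, -0.25 and -0.08 by run), RPL8 had the widest difference at -0.20 ± 0.12, and 0 of 45 were called by edgeR over all runs or without run 1. Under scaling by library size alone their median was -0.06 where that of all genes was 0.08. Ribosome biogenesis genes were lower in 37 of 38 cases (median -0.16, with 0.03, -0.21 and -0.27 by run), and RRS1, an assembly factor of the large subunit, was at 64.1, 75.1 and 54.6 CPM and then 66.3, 45.4 and 23.6 CPM. Mitosis genes were lower in 36 of 39 cases (median -0.13, with 0.10, -0.25 and -0.33 by run). Of the 39, 10 were lower in all 3 runs, where 18.1% of all genes were. PLK1, AURKA and PRC1 fell without run 1 (edgeR, adjusted p of 0.0370, 0.0383 and 0.0376). UBE2C, which drives exit from mitosis, had the widest difference, at 170.2, 211 and 98.8 CPM and 156, 141 and 68.6 CPM. Replication genes were lower in 29 of 38 cases (median -0.12, with 0.02, -0.15 and -0.24 by run), with TYMS, thymidylate synthase, at -0.30 ± 0.11, and 0 were called without run 1.

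Of 29 tested splicing regulators, 20 had a lower fitted level at 6 h (median -0.10, with 0.02, -0.17 and -0.18 by run). TRA2B, an activator of alternative exons, was at 198, 265 and 219 CPM at 2 h and 219.8, 148 and 118 CPM at 6 h. Its relative TRA2A was at 79.5, 89.8 and 99.6 CPM and 92.3, 50.9 and 56.3 CPM. In both, 6 h was higher than 2 h in run 1 and lower in runs 2 and 3. Both fell without run 1 (edgeR, adjusted p of 8.3e-04 and 0.00163), 7 of 29 fell there in all, and DESeq2 called TRA2B over all runs. SRSF5 was the 1 member that rose without run 1 (101, 61.6 and 54.5 CPM and then 83.6, 79.4 and 75.3 CPM). LUC7L, a U1-associated splicing factor, was lower at 6 h in every run without overlap, at 84.01, 97.9 and 102 CPM and 76.9, 52.1 and 60.97 CPM.

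Among the genes that went the same way in all 3 runs, those with the smallest p and a mean of at least 5 CPM, 6 higher and 5 lower at 6 h, are given as values, since none was called by edgeR. They had adjusted p-values of 0.0929 to 0.141 by edgeR, and all 11 were called by DESeq2, by edgeR without the filter on low counts, and by edgeR without run 1. ARRDC3, an arrestin that restrains beta-adrenergic signalling and glucose uptake, was at 58.3, 60.6 and 74.6 CPM at 2 h and 76.1, 125 and 169 CPM at 6 h. All 3 libraries of 6 h lay above all 3 of 2 h and above the unheated 58.3, 53.5 and 64.3 CPM, and the log2 difference was 0.90 ± 0.15 (edgeR, adjusted p of 0.0929). TMEM177, a factor in the assembly of cytochrome c oxidase, was at 14.4, 15.02 and 11.3 CPM and then 8.52, 8.88 and 6.81 CPM, also without overlap, and had a difference of like size in all runs (-0.72, -0.73 and -0.69 on the log2 scale). SCAND1 was at 52.9, 67.9 and 61.2 CPM and 45.1, 38.3 and 33.8 CPM, and its times did not overlap either (-0.64 ± 0.12 on the log2 scale, adjusted p of 0.0929).

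BMPR1A, a receptor of bone morphogenetic proteins, was at 19.6, 11.9 and 13.2 CPM at 2 h and 26.2, 24.8 and 23.1 CPM at 6 h. Its times did not overlap, and the 2 h levels of runs 2 and 3 lay below the unheated 20.5, 19.8 and 16.6 CPM and all 6 h levels above it. RIT1, a Ras-related GTPase, was at 112, 86.5 and 101 CPM and 121, 135 and 186 CPM. FAM84B was at 11.5, 13.3 and 15.1 CPM and 15.4, 21.01 and 25.9 CPM. Neither gene's times overlapped. HS6ST1, which adds sulfate to heparan chains, was at 3.05, 4.45 and 6.10 CPM and 5.08, 8.99 and 11.9 CPM. ZNF689, a zinc finger protein, was at 3.11, 4.71 and 3.19 CPM and 4.49, 9.46 and 8.996 CPM. In these 2 genes the 6 h library of run 1 lay within the range of the 2 h libraries. On the lower side, H2AFX, the histone variant marked at DNA breaks, was at 274, 286 and 147 CPM and 240.4, 156 and 86.1 CPM, with run 3 lower than the other runs at both times. CKS2, a subunit of cyclin-dependent kinases, was at 107, 134 and 75.4 CPM and 101, 68.3 and 48.1 CPM. In H2AFX and CKS2 the times overlapped between runs, and the lower level at 6 h was seen only within each run.

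In the fit without run 1, the called genes with a gene symbol, a mean of at least 5 CPM and 1 direction in runs 2 and 3 were ranked by log2 difference, which leaves out the mitochondrial transcripts listed by locus tag. The 12 lowest were HSPA1A, BAG3, HSPA6, HSPH1, ZFAND2A, DNAJA1, SCHIP1, KLF2, WWC1, AHSA2, HSPB8 and NR4A1, a choice made after the values were seen. SCHIP1, a partner of the tumour suppressor merlin, was at 29.96, 61.2 and 66.1 CPM at 2 h and 37.02, 27.996 and 16.9 CPM at 6 h. WWC1, known as KIBRA and part of Hippo signalling, was at 44.1, 91.8 and 101 CPM and 61.6, 43.1 and 28.1 CPM. Both were higher at 6 h in run 1 and lower in runs 2 and 3. The 12 highest were CHAC1, KLHL29, PITPNM3, JUN, FGF21, YPEL4, PDK4, FBXO32_1, SESN3, RAPGEFL1, SESN2 and BBC3. SESN3, a FOXO-responsive sestrin, was at 20.7, 9.04 and 43.7 CPM and 21.5, 25.5 and 102 CPM, so that run 3 was the highest at both times. FBXO32_1, an entry named for the atrophy-linked ubiquitin ligase FBXO32, was at 10.4, 6.22 and 12.3 CPM and 13.6, 17.4 and 28.5 CPM, higher at 6 h in all runs and called by DESeq2. Of these 24 genes, run 1 went against runs 2 and 3 in 19. The choice required 1 direction in runs 2 and 3 and left run 1 out, so this count does not measure how run 1 differs. Over all genes tested, 17.3% were higher and 18.1% lower at 6 h in all 3 runs.

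**Figure D5:**
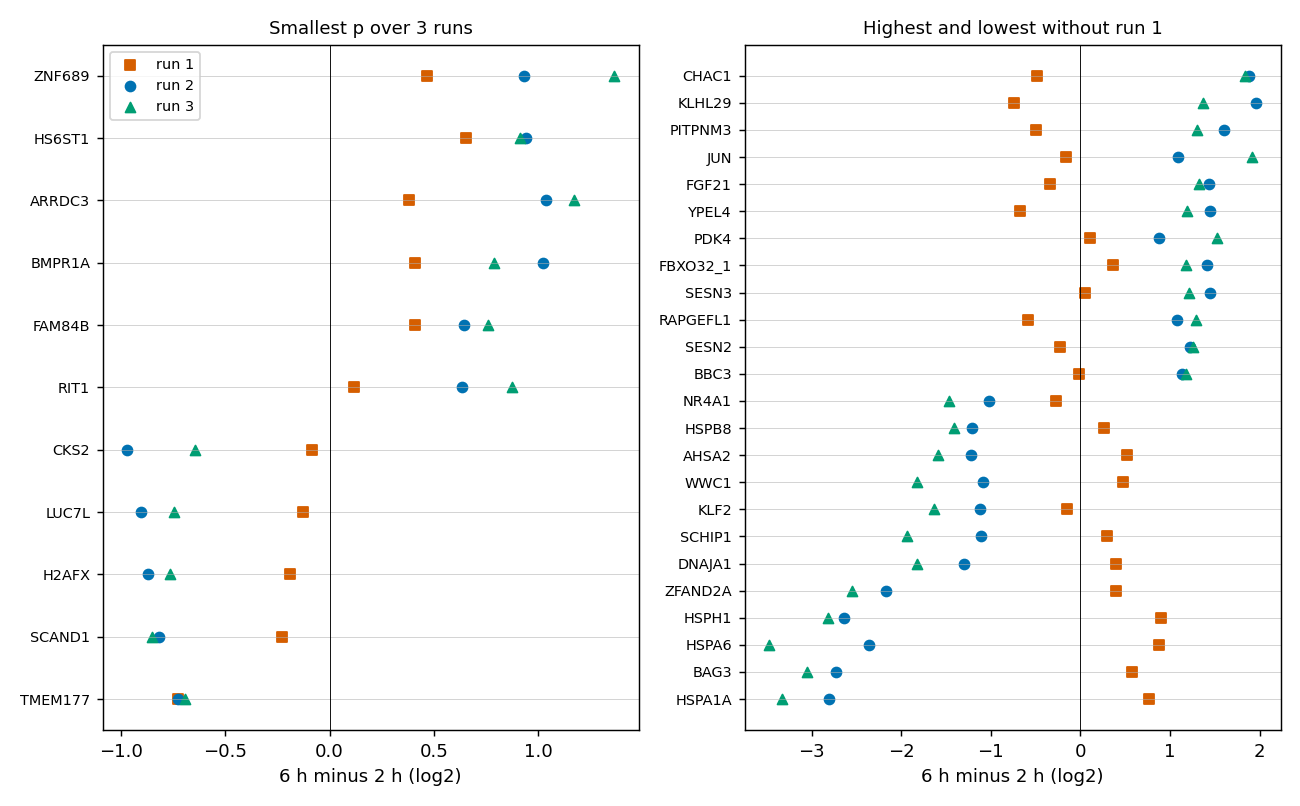
Symbols give the 6 h minus 2 h difference in log2(CPM + 0.5) in runs 1, 2 and 3 (horizontal axis) for 11 genes with the smallest p and 1 direction in all runs (left) and for the 24 highest and lowest called genes of the fit without run 1 (right). On the left run 1 lies nearer to 0 than runs 2 and 3 in all but TMEM177, and on the right the HSPA1A row runs from 0.77 in run 1 to -3.33 in run 3.

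Metabolic, matrix and junction genes had list medians from -0.12 (glycolysis) to 0.10 (integrins and laminins). The gene given for each is its widest difference at a mean of at least 5 CPM. Of 28 tested genes of cholesterol synthesis and uptake 14 were higher and 14 lower (median -0.01). At an unadjusted p under 0.05 stood 0 of them, where 6.89% of all genes were higher and 5.03% lower. The widest difference was that of ABCA1, a sterol exporter, at 2.41, 7.63 and 1.72 CPM and 3.31, 20.7 and 3.78 CPM, with run 2 far from the others at both times. Fatty acid synthesis genes had a median of 0.09 (-0.05, 0.215 and 0.01 by run), with ACACA at 0.24 ± 0.12, and milk genes one of -0.02 over the 11 tested, with LPIN1 at 0.36 ± 0.21. By run, ACACA differed by -0.02, 0.46 and 0.27 and LPIN1 by -0.32, 0.87 and 0.62. Glycolysis genes were lower in 18 of 23 cases and in all 3 runs in 12, where 18.1% of all genes were. Their median was -0.12 (-0.08, -0.15 and -0.11 by run), with ALDOA, an aldolase, at -0.22 ± 0.10. None of the genes of these 4 lists was called without run 1. NRF2 targets had a median of -0.09, lower in all 3 runs in 11 of 26 (18.1% of all genes were). The widest difference was that of OSGIN1 at 0.48 ± 0.21. Integrin and laminin genes were higher in 20 of 22 cases (median 0.10), with LAMA3, a chain of the epithelial laminin-332, higher in every run at 366, 449.6 and 496 CPM and 424, 686 and 675 CPM. Tight junction genes had a median of 0.08 (CLDN12 at 0.31 ± 0.13), collagen and its folding factors one of -0.04 (SERPINH1, the collagen chaperone HSP47, at -0.34 ± 0.23), and osmolyte transporters one of 0.09 (SLC5A3, a myo-inositol transporter, at -0.96 ± 0.44). By run, SERPINH1 differed by 0.14, -0.66 and -0.41 and SLC5A3 by 0.55, -1.40 and -1.61, so both were higher at 6 h in run 1. Autophagy and lysosome genes had a median of -0.00 (ULK1 at 0.34 ± 0.27) and hypoxia genes one of 0.02 (DDIT4 at 0.25 ± 0.21), and none of the genes named here from these lists was called by edgeR over all runs. By run, ULK1 differed by -0.11, 0.49 and 0.54 and DDIT4 by -0.13, 0.67 and 0.29. Scaling by library size alone, which moved the median of all genes to 0.08, turned the medians of the cholesterol, milk, collagen and autophagy lists to 0.07, 0.06, 0.05 and 0.08, so no direction is read from them.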

How the data were processed

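Poly-A RNA was sequenced in paired-end mode from 6 groups of 3 libraries, and the deposited values are raw counts per gene. Per the labels' protocols, the authors used fastp 0.23.2 for trimming and STAR 2.7.9a for alignment against ARS-UCD 1.3. featureCounts 2.0.3 is listed in the submitters' processing notes. Not given in the sources used here are its options, annotation and strand setting. Low counts were mostly even (70.3 to 74.1% of those from 1 to 20), which bears on how exact they are.

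All 18 libraries were fitted together in edgeR 4.0.16 (R 4.3.3) by the quasi-likelihood test, with TMM scaling, filterByExpr at a minimum count of 10, a term for each group and the run as a block, and Benjamini-Hochberg adjustment over 15158 genes. DESeq2 1.42.0 and limma 3.58.1 were alternatives. Per-run differences used log2(CPM + 0.5). The runs were taken as pairs because the labels say the experiment was repeated, and in 45 same-numbered pairs of libraries the deviations from the group means correlated at 0.195 to 0.777. The members and lists were chosen with earlier results of these data known. Named genes were the 6 per direction with the smallest p, 1 direction in all runs and at least 5 CPM on average, 8 fixed chaperones, and the widest difference of each of 38 lists, plus genes called without run 1. The 13 mitochondrial genes were matched by locus tag to RefSeq, where 24566 names (80.2%) were found. Steps were tested on simulated data. A promoter motif search was not run, and 1 gene that the rule on the smallest p named is not reported here.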

Additional observations from a re-analysis of the deposited data

How the results depend on the processing

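The count of 0 genes at an adjusted p under 0.05 with the replicate block was also 0 without the replicate block, with the 6 compared libraries alone, with DESeq2 size factors, library size alone, limma-voom, a filter of 5 CPM and a fold-change minimum. DESeq2 called 131 (86 higher, 45 lower) and edgeR without a filter 32 (20 and 12). Leaving out libraries or runs gave 0 to 547 calls (0 to 332 higher, 0 to 215 lower), above 0 only where a library of run 1 was left out. In fits added after seeing the data, without run 1 DESeq2 called 941 (546 and 395), limma-voom 643 (398 and 245), the fit with no replicate block 17 (5 and 12), and the 4 libraries of runs 2 and 3 alone 2691 (1475 and 1216). DESeq2 over all runs and edgeR without run 1 shared 99 genes (75.6% of 131 and 18.1% of 547). The cause of these differences in count was not tested. Signs turned for HSP90AA1 (0.0126 under library size alone, and -0.219 to 0.0473 on leaving out libraries or runs) and for HSP90B1 (-0.049 under DESeq2, -0.0328 under limma-voom, -0.0314 with no replicate block and -0.0356 with 4 libraries, each without run 1, and -0.0406 to 0.0851 on leaving out). On leaving out, ABCA1 ranged from -0.121 to 1.88 and NUPR1 from -0.106 to 1.36. With 3 pairs an exact sign-flip test of 1 value cannot go below a p of 0.25, and 1 library per time in each run leaves the difference between runs without a test.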
